A study of Mus musculus with 4 samples.

Results

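Interferon-stimulated genes are the genes that cells switch on when interferon binds its receptors. Of 43 listed genes of this kind, 36 were measured here by a probe set annotated to that gene alone, out of 19938 genes on the arrays. They were chosen by name, and where a gene had several probe sets the brightest over the 4 arrays was used. Isg15, Ifi47, Igtp, Irgm2 and Gbp2 had only probe sets annotated to several genes, and Ly6a and Ifi44 had none in the annotation used here, so these 7 were not analysed. RNA came from CD4+ cells of the spleen of C57BL/6 mice, collected with a biotinylated antibody on magnetic columns and measured on 1 single-channel array per sample. A wild type group of 2 samples held CD4+ splenocytes. A lymphoma group of 2 samples held CD4+ lymphoma cells of mice with a homozygous Tet2 gene trap, a cassette in the gene that cuts its transcript short. TET2 oxidises methylated cytosine in DNA. Genotype and malignancy differed together and cannot be told apart, and the labels give neither age, the number of animals nor the purity of the cells.

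Type I interferons (alpha and beta) signal through IFNAR1 and IFNAR2, and interferon gamma, a product of T cells and natural killer cells, through IFNGR1 and IFNGR2. Janus kinases at these receptors pass the signal to factors that enter the nucleus. A complex with STAT2 and IRF9 binds the interferon-stimulated response element, and the gamma-activated site is the element read after interferon gamma. The first route is known for antiviral genes such as the MX, OAS and IFIT families, the second for immunity-related GTPases and guanylate-binding proteins, which attack vacuoles that hold microbes. Many genes respond to both.

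The arrays were alike in overall signal, with a median intensity between 130 and 142 over 35556 probe sets, and every result is limited by the number of arrays. Tet2 had 980 and 1016 on the wild type arrays against 596 and 399 on the lymphoma arrays (log2 difference -1.03, SE 0.24, adjusted p = 0.077 in limma). Where the trap lies relative to the Tet2 probes was not known, so this is a limited check of the labels. The T cell markers Cd3e and Cd4 were high on all arrays. Their log2 values were 12.50 to 12.91 for Cd3e and 12.15 to 12.80 for Cd4. Cd5, also a T cell marker, had 11.94 and 11.76 on the wild type arrays against 11.25 and 10.60 on the lymphoma arrays. Most markers of B cells, macrophages and dendritic cells were lower on the lymphoma arrays, with values given beside the results they accompany. In bulk samples, fewer cells of a type and less RNA per cell cannot be told apart.

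The interferon-stimulated genes did not move as a block. In lymphoma, 1 of 36 rose, the guanylate-binding protein gene Gbp3, and 1 fell, the membrane gene Ifitm3, while 34 did not pass an adjusted p under 0.05 in limma. Over all genes 1.82% rose and 2.46% fell (4.27% together). The median log2 difference of the 36 genes was 0.33, against -0.04 over all genes, and 25 of them were above 0. Leaving out 1 array at a time, that median was 0.61 and 0.18 (wild type arrays 1 and 2) and 0.11 and 0.54 (lymphoma arrays 1 and 2). With an unadjusted p under 0.05, 14 lay higher and 4 lay lower, where 8.73% and 6.92% of all genes were. These counts were 6 and 4 with wild type array 2 left out and 9 and 7 with lymphoma array 1 left out. The groups did not overlap for 22 of them. In 18, both lymphoma values lay above both wild type values (20.6% of all genes), and in 4 they lay below (23.5%). Both calls were lost in a fit that left out a wild type array, where limma called 0 genes of the array (1418 higher and 890 lower with an unadjusted p under 0.05 without array 1, and 929 and 1120 without array 2). Leaving out wild type array 1, the adjusted p was 0.13 for Gbp3 and 0.12 for Ifitm3, and leaving out array 2 it was 0.12 and 0.066.

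**Figure D1:**
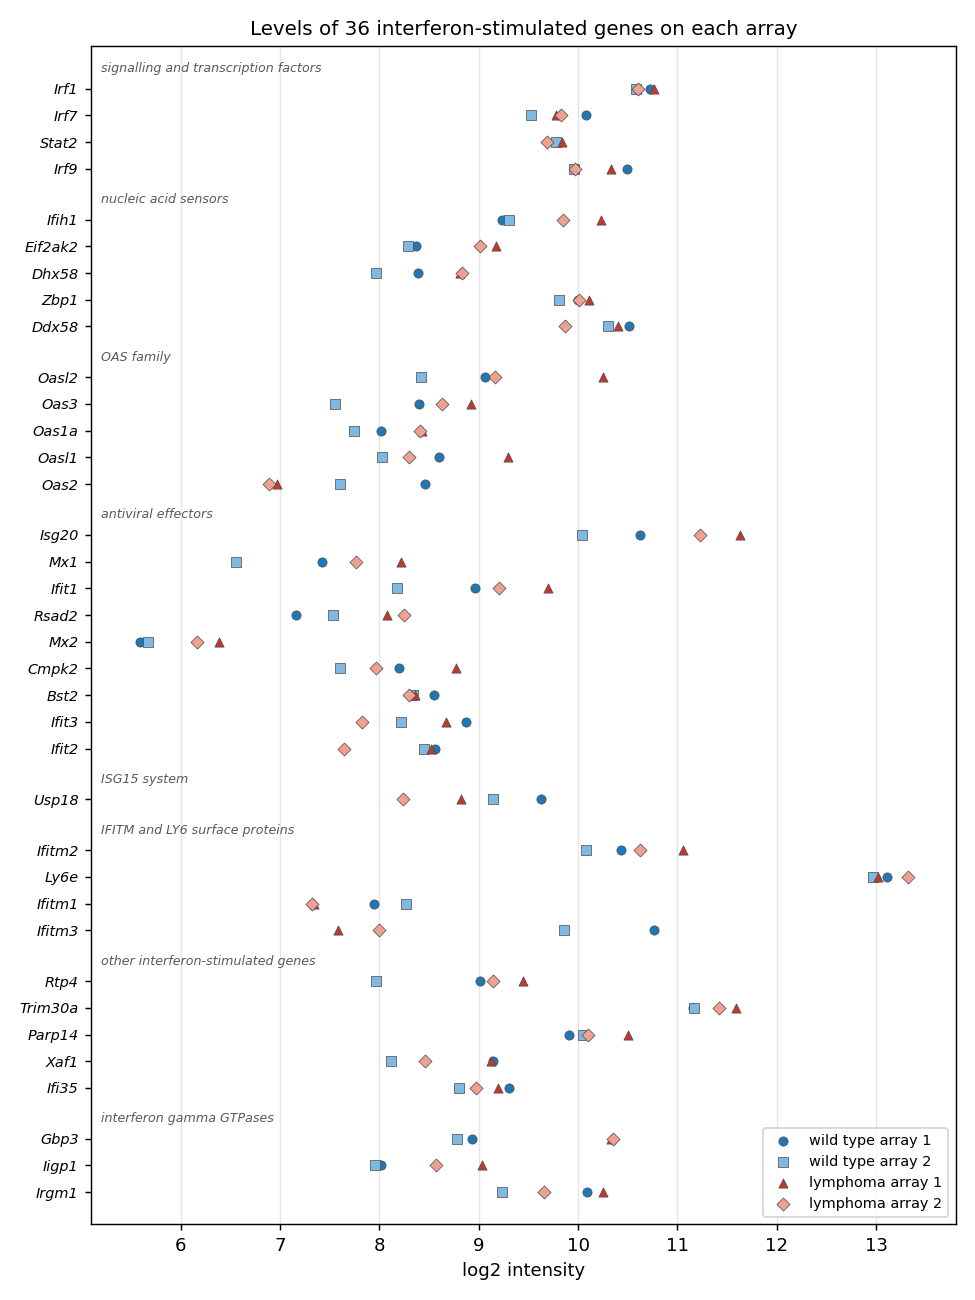
Log2 intensity (horizontal axis) of each measured interferon-stimulated gene, in rows grouped by role, with 1 point per array: 2 wild type and 2 lymphoma arrays. The lymphoma points of Ifitm3 (7.58 and 7.99) lie far left of its wild type points (10.77 and 9.86), and those of Gbp3 (10.33 and 10.35) lie right of its wild type points (8.93 and 8.78).

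Gbp3 encodes a large interferon-inducible GTPase that coats microbe-bearing vacuoles. Its intensity was 489 and 440 on the wild type arrays against 1288 and 1308 on the lymphoma arrays. The lymphoma arrays were nearly equal and both stood well above the wild type arrays. The log2 mean went from 8.86 ± 0.11 (SD, n = 2) to 10.34 ± 0.02 (SD, n = 2), a rise of 1.49 (SE 0.18, 2.80-fold, adjusted p = 0.0099 in limma).

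Ifitm3 encodes a membrane protein that blocks the fusion of enveloped viruses with endosomes. Its intensity was 1743 and 926 on the wild type arrays against 191 and 255 on the lymphoma arrays. Both lymphoma values were low, and the wild type arrays differed from each other more than for most of the other genes here. The log2 mean went from 10.31 ± 0.65 (SD, n = 2) to 7.79 ± 0.29 (SD, n = 2), a fall of 5.76-fold (log2 difference -2.53, SE 0.33, adjusted p = 0.013 in limma). On the same lymphoma arrays, macrophage and monocyte markers were lower, with 8 of 11 measured ones called lower and none higher. Their summed intensity was 12131 and 12159 on the wild type arrays against 3343 and 4983 on the lymphoma arrays. Conventional dendritic cell markers had 6 of 8 called lower, with sums of 7044 and 6450 against 1350 and 1365. B cell markers had 8 of 9 called lower, with sums of 20279 and 13682 against 3049 and 2708. Plasmacytoid dendritic cell markers had 6 of 8 called lower. Over all genes 2.46% were called lower. Csf1r, the growth factor receptor of macrophages, had log2 values of 10.39 and 10.79 against 7.84 and 8.32, and no marker was at 0. The part of these cells in the fall of Ifitm3 was not tested.

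The starts of some of these genes are shown, with the letters through which interferon signals can be read where they occur. RefSeq promoter windows (GRCm38.p6, 250 bases before to 50 after a start) were at hand for 32 of the 43 listed genes, measured or not, with 39 windows. The response element was searched as GAAA, any 2 bases and GAAA on both strands, and the gamma-activated site as TTCNNNGAA, which is its own reverse complement. At least 1 response element stood in a window of 19 of 32 genes (59.4%), against 3.99% of 27025 genes with a window. A gamma-activated site stood in 10 of 32 (31.2%), against 9.55%. By arm, the response element stood in 12 of 22 antiviral genes and in 5 of 6 GTPase genes. The 160 bases before the start follow for 7 genes, 5' to 3' along the gene, with matches to either motif in capitals. Gbp3 and Irgm1 are GTPase genes, Ifit1, Ifit3, Oas1a and Bst2 are antiviral genes that differed in their values, and Isg20 is an antiviral gene with a log2 difference of 1.10. For genes with several starts the one with the lowest coordinate is shown.
Gbp3 (chr3:142559884-142560043, plus strand): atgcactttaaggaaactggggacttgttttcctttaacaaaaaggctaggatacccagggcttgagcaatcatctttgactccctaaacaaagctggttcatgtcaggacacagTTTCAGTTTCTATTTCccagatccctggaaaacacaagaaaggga
Irgm1 (chr11:48871421-48871580, minus strand): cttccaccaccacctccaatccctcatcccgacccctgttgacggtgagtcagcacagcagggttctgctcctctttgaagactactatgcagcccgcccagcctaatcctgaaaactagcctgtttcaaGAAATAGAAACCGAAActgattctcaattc
Ifit1 (chr19:34640729-34640888, plus strand): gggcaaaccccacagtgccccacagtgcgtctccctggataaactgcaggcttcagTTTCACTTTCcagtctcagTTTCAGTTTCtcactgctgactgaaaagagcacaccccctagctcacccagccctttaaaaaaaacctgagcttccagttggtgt
Ifit3 (chr19:34583369-34583528, plus strand): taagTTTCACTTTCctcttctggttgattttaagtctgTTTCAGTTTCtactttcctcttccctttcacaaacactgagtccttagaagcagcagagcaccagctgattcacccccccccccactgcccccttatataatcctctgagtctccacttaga
Oas1a (chr5:120907526-120907685, minus strand): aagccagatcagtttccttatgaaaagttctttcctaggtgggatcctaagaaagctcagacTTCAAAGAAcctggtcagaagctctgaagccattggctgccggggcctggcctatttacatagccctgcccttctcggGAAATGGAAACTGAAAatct
Bst2 (chr8:71537473-71537632, minus strand): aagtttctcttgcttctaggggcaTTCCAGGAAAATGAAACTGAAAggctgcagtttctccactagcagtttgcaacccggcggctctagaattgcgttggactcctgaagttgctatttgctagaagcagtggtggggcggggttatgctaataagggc
Isg20 (chr7:78913264-78913423, plus strand): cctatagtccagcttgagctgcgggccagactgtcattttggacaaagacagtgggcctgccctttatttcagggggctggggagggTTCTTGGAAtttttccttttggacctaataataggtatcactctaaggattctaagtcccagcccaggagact
Gbp3 and Irgm1 each held 2 overlapping response elements close to the start, at -45 and -39 in Gbp3 and at -30 and -24 in Irgm1 (first base of the match, counted from the start). Ifit1 and Ifit3 held 2 separate ones each, at -104 and -85 and at -156 and -122. Oas1a held 2 overlapping ones at -20 and -14 and a gamma-activated site at -98, and in Bst2 a gamma-activated site at -136 ran into response elements at -130 and -124. None of the 3 Isg20 windows held these letters of the response element, and the one shown held a gamma-activated site at -73. In Ifitm3 the 2 response elements stood after the start, at position 3 and position 20, and are not printed. Of the genes shown, Ifit1 had a log2 difference of 0.88 (SE 0.31) and Ifit3 of -0.30 (SE 0.35). Gbp3 had 1.49 (SE 0.18) and Irgm1 0.29 (SE 0.34). A link between motifs and values was not tested. A match is a run of letters and not a measured binding site.

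None of the factors that carry the signal passed the test (0 of 4 also with an unadjusted p under 0.05). Stat2 had 881 and 879 on the wild type arrays against 916 and 822 on the lymphoma arrays, Irf9, its DNA-binding partner, 1444 and 999 against 1287 and 1004. Irf1, a factor induced by interferon gamma, had 1693 and 1531 against 1744 and 1558. Irf7, which amplifies interferon production, had 1085 and 740 against 875 and 910. The groups overlapped for all 4 genes. Their log2 differences lay between -0.08 (Irf9, 95% interval -0.67 to 0.52) and 0.03 (Irf1, -0.38 to 0.45).

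Among the 5 nucleic acid sensors, none passed the test (3 lay higher with an unadjusted p under 0.05). The groups did not overlap for 4, all higher in lymphoma, as for 20.6% of all genes. Ifih1 encodes MDA5, a sensor of long double-stranded RNA. It had 601 and 633 on the wild type arrays against 1204 and 923 on the lymphoma arrays (log2 difference 0.77, SE 0.20, adjusted p = 0.11 in limma). Eif2ak2 encodes PKR, a kinase that halts translation on double-stranded RNA, and had 330 and 312 against 578 and 518 (0.77, SE 0.18, adjusted p = 0.079). For both genes every lymphoma value was above every wild type value. Dhx58, which encodes the regulator LGP2, differed by 0.64 (335 and 251 against 448 and 457), and Zbp1, a sensor of left-handed nucleic acid, by 0.16. Ddx58 encodes RIG-I, the sensor of short RNA with a triphosphate end, and had 1462 and 1259 against 1354 and 935 (log2 difference -0.27, adjusted p = 0.71). Its groups overlapped.

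The OAS family, enzymes that answer double-stranded RNA by making oligoadenylates, had differences both ways and no member passed (3 lay higher and 1 lower with an unadjusted p under 0.05). Oas2 had 353 and 194 on the wild type arrays against 125 and 118 on the lymphoma arrays, a log2 difference of -1.10 (SE 0.30, adjusted p = 0.12 in limma). Its lymphoma values were both below the wild type values. Oas3 was the reverse, with 337 and 188 against 485 and 397 (0.80, SE 0.31). Oas1a had 260 and 215 against 346 and 341 (0.54, SE 0.19). The OAS-like Oasl2 had 533 and 342 against 1216 and 573 (0.97, SE 0.40), and Oasl1 had 389 and 261 against 628 and 315 (0.48, SE 0.37). For both OAS-like genes lymphoma array 1 stood apart from the other 3 arrays, and without it the log2 difference of Oasl2 was 0.42 and that of Oasl1 -0.02.

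Among 9 antiviral effectors, none passed (5 lay higher with an unadjusted p under 0.05). In 5, both lymphoma values lay above both wild type values, as for 20.6% of all genes. Isg20, an exonuclease of single-stranded RNA, had 1578 and 1052 on the wild type arrays against 3173 and 2406 on the lymphoma arrays. The log2 difference of 1.10 (SE 0.25, 2.14-fold) had an adjusted p of 0.078 in limma, and of 0.026 with the replicate number as a block. The labels do not say what a replicate number shares, so a pairing is not established. Mx1, a dynamin-like GTPase that traps viral nucleocapsids, had 171 and 94.3 against 298 and 218. Its difference was 1.00 (SE 0.32, adjusted p = 0.18, or 0.048 with the block), while Mx2 differed by 0.64 at dim values of 48.1 and 51.1 against 83.7 and 71.7. Ifit1, which binds foreign RNA ends, had 497 and 289 against 832 and 589 (0.88, SE 0.31). Its neighbours by name went the other way with overlapping groups: Ifit2 had 378 and 349 against 368 and 200 (-0.42, SE 0.30), and Ifit3 had 470 and 297 against 407 and 227 (-0.30, SE 0.35). Rsad2, which encodes viperin, differed by 0.82 (143 and 185 against 269 and 304), and Cmpk2, a mitochondrial nucleotide kinase, by 0.47 with overlapping groups. Bst2 encodes tetherin, which holds virions at the cell surface, and had 374 and 324 against 328 and 315 (-0.12, 95% interval -0.56 to 0.32).

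Usp18 removes ISG15 from proteins and restrains the type I receptor. It had 790 and 566 on the wild type arrays against 453 and 302 on the lymphoma arrays, both lower (log2 difference -0.86, SE 0.28, adjusted p = 0.19 in limma). With lymphoma array 1 left out its difference was -1.15 (adjusted p = 0.0098), with lymphoma array 2 left out -0.56 (0.31), and with wild type arrays 1 and 2 left out in turn -0.62 (0.56) and -1.10 (0.37).

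The IFITM genes, which sit together in the genome and encode closely related membrane proteins, split. Beside the fall of Ifitm3, Ifitm1 had 247 and 309 on the wild type arrays against 162 and 160 on the lymphoma arrays (log2 difference -0.78, SE 0.19, adjusted p = 0.092 in limma). Ifitm2 lay in the other direction, with 1385 and 1083 against 2124 and 1580 (0.58, SE 0.23, adjusted p = 0.28). Its 3 probe sets differed by 0.46 to 0.58, and the 2 of Ifitm1 by -0.98 and -0.78. Near-identical copies can share probes, so values of single IFITM genes are uncertain. Ly6e, a lipid-anchored surface protein, was bright and level, with 8874 and 8027 against 8313 and 10264 (0.13, 95% interval -0.25 to 0.51).

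The 5 other members measured all had differences above 0 with 4 arrays (except Ifi35 after quantile normalization, at -0.027), and none passed, also with an unadjusted p under 0.05. Rtp4, a chaperone-like inhibitor of viral replication, had 517 and 250 on the wild type arrays against 698 and 567 on the lymphoma arrays (0.81, SE 0.35, adjusted p = 0.35 in limma). Its difference was 1.33 with wild type array 1 left out and 0.28 with wild type array 2 left out. Trim30a (0.34), a member of the TRIM ubiquitin ligase family, and Parp14 (0.32), an ADP-ribosyltransferase, had higher values on both lymphoma arrays. Ifi35 had 634 and 447 against 586 and 503 (0.03) and Xaf1 differed by 0.16, both with overlapping groups. Both signs turned when wild type array 2 (Ifi35 -0.23, Xaf1 -0.35) or lymphoma array 1 (-0.083 and -0.17) was left out.

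**Figure D2:**
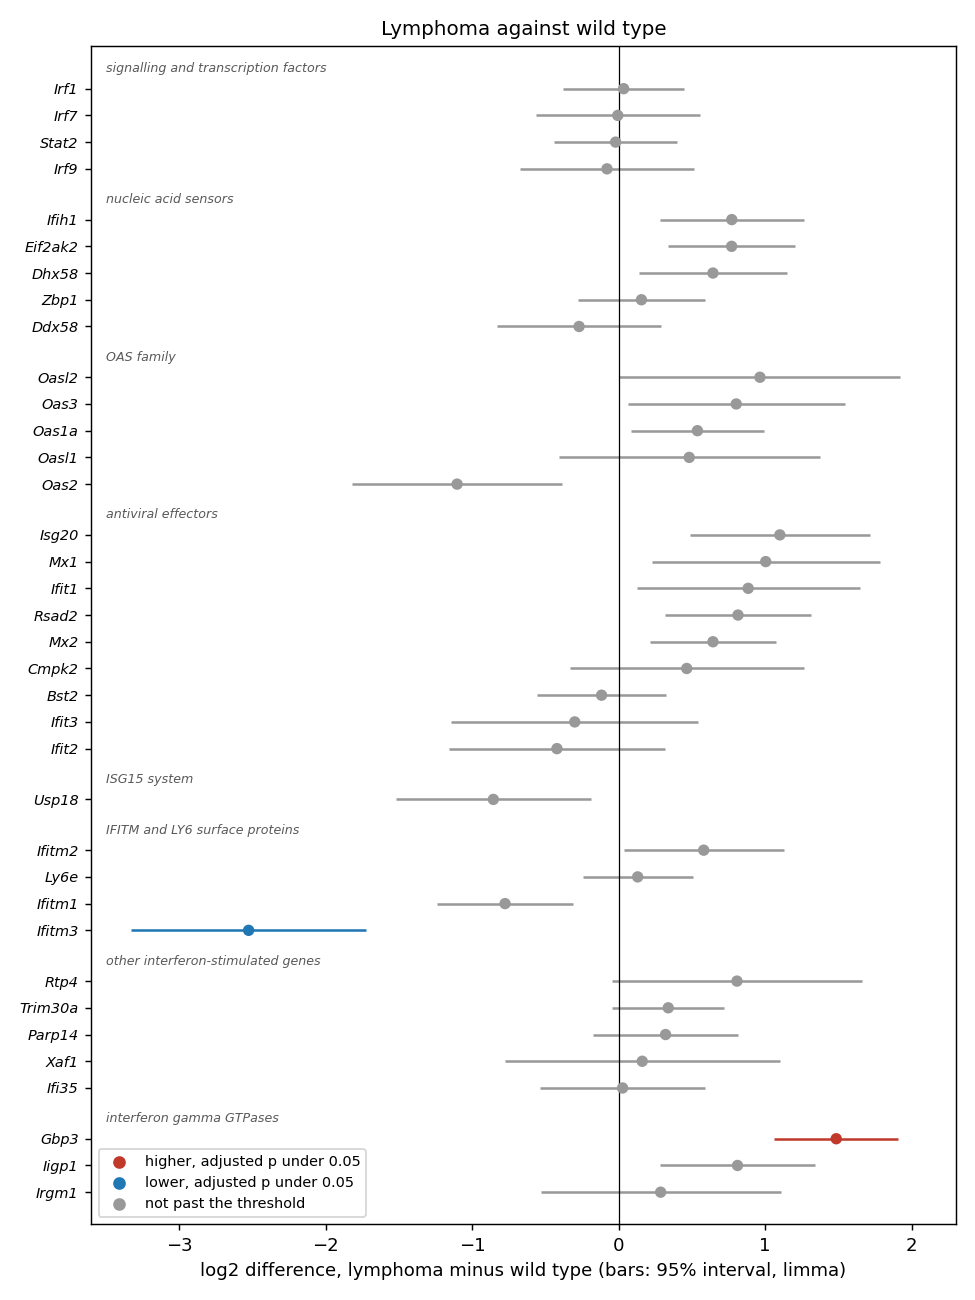
Log2 difference of lymphoma minus wild type (horizontal axis) with its 95% interval from limma for the 36 genes, in rows grouped by role. Colour marks the rise of Gbp3 (1.49) and the fall of Ifitm3 (-2.53), and grey marks the 34 genes that did not pass.

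The interferon gamma GTPases were compared with the type I antiviral genes, leaving Irf1, Ly6e and the IFITM genes in neither arm. Of the GTPases, 3 of 7 were measured. Beside Gbp3, Iigp1, an immunity-related GTPase that breaks up parasite vacuoles, had 259 and 249 on the wild type arrays against 524 and 379 on the lymphoma arrays (log2 difference 0.81, SE 0.22, adjusted p = 0.12 in limma). Irgm1, a regulator of these GTPases, had 1094 and 604 against 1215 and 810, with overlapping groups (0.29, SE 0.34). The median difference was 0.81 for the 3 GTPases and 0.40 for the 28 measured antiviral genes, a gap of 0.41. Relative to the wild type mean of each gene, the antiviral median was 0.25 and -0.25 on the wild type arrays against 0.54 and 0.11 on the lymphoma arrays. The GTPase median was 0.08 and -0.08, then 1.05 and 0.58. Gene by gene, both lymphoma values lay above both wild type values in 15 of the 28 antiviral genes (20.6% of all genes). They lay below in 2 (23.5% of all genes). On lymphoma array 2 the antiviral median lay inside its wild type range, and the median of the 3 GTPases lay outside its own. That median was the value of Iigp1, and Irgm1 was at -0.005 on the same array, inside its wild type range. Of the antiviral genes 0 of 28 were called in limma (11 lay higher and 2 lay lower with an unadjusted p under 0.05), and of the GTPases 1 of 3. Leaving out 1 array at a time, the gap lay between 0.23 (leaving out wild type array 1) and 0.54, the antiviral median between 0.11 (lymphoma array 1 left out) and 0.61 (wild type array 1 left out), and the GTPase median between 0.58 and 1.05. The gap rests on 3 genes. With the 6 measured inducible GTPases outside the list (Gbp4, Gbp5, Gbp7, Gbp8, Gbp9 and Gbp11), the median over 9 GTPases was 0.02. By array the median over these 9 was 0.07 and -0.07 on the wild type arrays, then 0.31 and -0.19. Lymphoma array 2 then lay below the wild type range. Among those 6, none passed (1 with an unadjusted p under 0.05). Gbp7 differed by 0.83 (910 and 914 against 1445 and 1823, adjusted p = 0.076), and Gbp9 by -0.32 with overlapping groups.

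The arrays of a group also differed from each other in these genes. Of the 28 antiviral genes, 23 were higher on wild type array 1 than on wild type array 2, and 25 were higher on lymphoma array 1 than on lymphoma array 2. Over all genes these shares were 54.6% and 56.4%. The median gap was 0.49 on the log2 scale between the wild type arrays and 0.33 between the lymphoma arrays, against 0.03 and 0.05 over all genes. The widest wild type gaps were those of Rtp4 (1.05) and Xaf1 (1.03), and the widest lymphoma gaps those of Oasl2 (1.09) and Oasl1 (1.00). Rsad2 was lower on array 1 in both groups, by 0.38 and 0.18. The median gap within a group was thus about as large as the median difference of 0.40 between the groups. With array medians subtracted 22 and 22 of the 28 were higher on array 1, and after quantile normalization 20 and 22. Plasmacytoid dendritic cells are a known source of type I interferon. Their marker list, which shares Bst2 with the genes studied here, summed to 10295 on wild type array 1 and 6539 on array 2. On lymphoma arrays 1 and 2 it summed to 2844 and 1845. Of its 8 markers, 7 were higher on wild type array 1 than on array 2, and 6 on lymphoma array 1. Gaps between the wild type arrays were wide for Ly6d (2186 and 672) and Spib (2675 and 1375), while Ccr9 had 555 and 607. On the lymphoma arrays the widest gaps of this list were those of Irf8 (1282 and 606) and Spib (413 and 182). Siglech had 102 and 111 there, and Clec12a 84.9 and 95.8. The sums of B cell markers were 20279 and 13682, then 3049 and 2708. The part of these cells in the gaps was not tested.

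**Figure D3:**
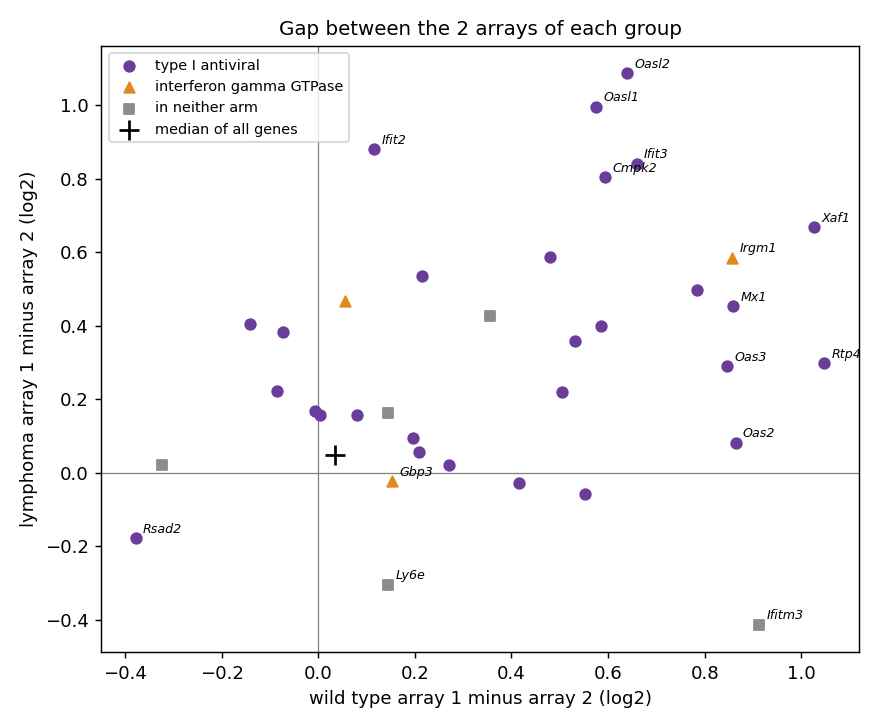
Log2 gap between wild type arrays 1 and 2 (horizontal axis) and between lymphoma arrays 1 and 2 (vertical axis), with 1 point per gene, coloured by arm, and a cross at the median of all genes (0.03 and 0.05). Most antiviral genes lie to the upper right, away from the cross, while Rsad2 lies in the lower left and Ifitm3 in the lower right.

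The rest of the pathway was covered by 119 further genes, of which 100 were measured. Of these 3 rose and 4 fell in limma, where 1.82% and 2.46% of all genes did. The median log2 difference of the 100 was -0.03. None of the 15 measured interferon genes passed (only Ifng had an unadjusted p under 0.05). Ifng, the interferon gamma gene, had 484 and 894 on the wild type arrays against 1241 and 1066 on the lymphoma arrays (0.81, SE 0.31, adjusted p = 0.27). Its lymphoma values were both higher, and the wild type arrays differed from each other by 0.88 on the log2 scale. Ifnb1, the interferon beta gene, was dim throughout, with 40.9 and 51.2 against 48.7 and 45.7. The other interferon genes lay between -0.35 and 0.49, and the interferon alpha genes share sequence with each other.

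Of 6 interferon receptor chains, 5 had lower values in lymphoma and none passed the test (2 with an unadjusted p under 0.05). Ifngr1 had 2680 and 2009 on the wild type arrays against 1537 and 1570 on the lymphoma arrays (log2 difference -0.58, SE 0.20, adjusted p = 0.21 in limma), and Ifngr2 had 1916 and 1627 against 1115 and 1199 (-0.61, SE 0.18, adjusted p = 0.15). The type I chains had 1207 and 1317 against 917 and 1155 for Ifnar1 (-0.29, SE 0.19) and 2081 and 1593 against 1552 and 1351 for Ifnar2 (-0.33, SE 0.20). For all 4 of these chains both lymphoma values lay below both wild type values, as for 23.5% of all genes. The kinase gene Jak1 was level (-0.09) and Jak2 differed by 0.53. Of the other IRF factors, Irf8, a factor of B cells and dendritic cells, differed by -1.21 (SE 0.36, adjusted p = 0.15), and Irf4 by -0.01.

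Of 11 measured genes of sensing and induction 2 fell (2.46% of all genes did), both nucleic acid receptors of the endosome. Tlr7 fell by 1.39 on the log2 scale (530 and 411 against 211 and 150, SE 0.24, adjusted p = 0.033 in limma) and Tlr8 by 1.45 (159 and 131 against 61.6 and 45.5, SE 0.22, adjusted p = 0.021). Tlr9, the receptor for unmethylated DNA, differed by -1.59 (adjusted p = 0.055). Markers of B cells were lower on the same arrays (8 of 9 measured ones called, median log2 difference -3.29), as were those of plasmacytoid dendritic cells (6 of 8, median -2.39), and their part in these falls was not tested. Sting1, the adaptor for DNA sensing, differed by 0.69 (adjusted p = 0.10).

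Among 51 measured interferon-stimulated genes outside the list, 3 rose and 2 fell in limma, where 1.82% and 2.46% of all genes did. The median difference of the 51 was 0.01. Cxcl10, a chemokine that draws CXCR3-bearing T cells, had 612 and 421 on the wild type arrays against 1715 and 1614 on the lymphoma arrays, and rose by 1.71 (SE 0.23, 3.28-fold, adjusted p = 0.014). Cxcl9, a chemokine for the same receptor, had a log2 difference of 0.01 with overlapping groups. Lgals3bp, a secreted galectin-binding protein, had 2096 and 1833 against 3938 and 4474 and rose by 1.10 (SE 0.17, adjusted p = 0.021). Ifi44l had 52.1 and 52.8 against 911 and 230, a rise of 3.13 (SE 0.59, adjusted p = 0.041), in which the lymphoma arrays differed from each other about as widely as the lower of them did from wild type. Its call was lost after quantile normalization (adjusted p = 0.0503), with a pseudocount of 16 (0.055) and with a robust variance trend (0.21). Ifitm6, an IFITM gene of myeloid cells, had 786 and 449 against 62.0 and 65.1, a fall of 9.35-fold (log2 difference -3.23, SE 0.28, adjusted p = 0.0049). Ms4a4b, a membrane gene of T cells, fell by 1.36 (2009 and 1648 against 732 and 687, SE 0.19, adjusted p = 0.015). As for Ifitm3, macrophage and monocyte markers were lower on the lymphoma arrays too (median log2 difference -1.34 over 11 markers). Their sum was near equal on the wild type arrays (12131 and 12159), where Ifitm6 had 786 and 449. Markers of B cells and dendritic cells were lower as well. The part of any of these cells in the fall of Ifitm6 was not tested.

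**Figure D4:**
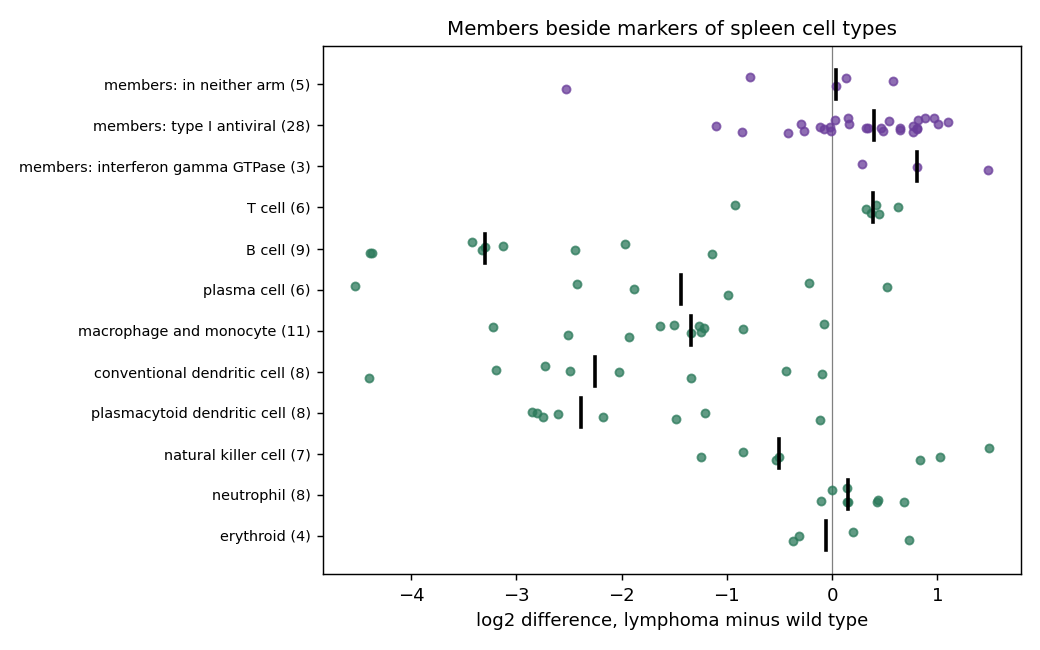
Log2 difference of lymphoma minus wild type (horizontal axis) for the interferon-stimulated genes by arm (purple) and for markers of spleen cell types (green), with 1 point per gene, its number of genes in brackets and a bar at the median. The antiviral and GTPase medians lie at 0.40 and 0.81, beside 0.39 for the T cell markers, and the B cell, macrophage and dendritic cell markers lie below 0.

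Markers of T cells had higher values on the lymphoma arrays, except Cd5 (log2 difference -0.92). Of 6 measured ones none passed (4 lay higher and 1 lower with an unadjusted p under 0.05), 5 were above 0 and their median log2 difference was 0.39, close to the antiviral median of 0.40. The part of the cell mix in the antiviral median was not tested. The natural killer cell list had differences both ways. Of 7 markers 1 was called lower, 3 lay higher and 2 lower with an unadjusted p under 0.05, and the median of -0.50 became 0.54 with lymphoma array 1 left out. The neutrophil list had 0 of 8 called and a median of 0.15, and the erythroid list 0 of 4 called and a median of -0.06. The plasma cell list had 3 of 6 called lower, against 2.46% of all genes, and a median of -1.44.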

How the data were processed

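The authors' deposited values are linear intensities for each probe set of each array. They come from Affymetrix Expression Console, per the submitters' processing notes. The notes do not state how they were summarised and normalized. Without detection calls, dim genes have no bound. Values were put on the log2 scale with no pseudocount. Probe sets were named from GEO's platform annotation: 21789 had 1 gene symbol, 1621 several and 12146 none listed. Those with several symbols were not used. List symbols not found were matched through RefSeq identifiers, as for Sting1 and Cgas.

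The groups were compared in limma 3.58.1 (R 4.3.3) without covariates. Tests were two-sided, eBayes used a variance trend, and p-values were adjusted by Benjamini-Hochberg over 19938 genes. A call was an adjusted p under 0.05. In this main fit there were 2 residual and 4.24 prior degrees of freedom, and a fit with a block has fewer residual ones. Nothing says that samples came from separate animals, so p-values measure the spread between these samples. The procedure was tested on simulated data with 200 of 19938 genes changed. It called 33% of the genes changed by 1 log2 unit, 97% of those changed by 2, and 13 unchanged genes. A true difference near 1 log2 unit would thus often not pass. Lists were described by counts and medians, with no test of their own. The genes and lists were chosen with earlier results of these data known. Values by array were given for called genes, for the highest and lowest difference in each role group of the 36, for their OAS, IFITM and GTPase genes, and for some others chosen after their values were seen. The 12 alternatives were quantile normalization, array medians subtracted, a filter on the lowest tercile by mean level, no variance trend or a robust one, averaging of probe sets, a pseudocount of 16, the replicate number as a block, and leaving out each array. Figures were drawn with matplotlib 3.10.9.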

Additional observations from a re-analysis of the deposited data

How the results depend on the processing

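The calls on Gbp3 and Ifitm3 held under all alternatives that kept 4 arrays. With the replicate number as a block 3 of the genes were called higher, with Isg20 and Mx1 added, and the count called lower was the same. The design text speaks of pairs of RNA, and the labels number 2 samples in each group, without saying what a pair or a number shares. Across 19938 genes, which are not independent, the gap between the wild type arrays and that between the lymphoma arrays correlated at r = 0.23, which with 2 pairs does not establish a pairing. Leaving out 1 array gave 0 to 9 of these genes called higher (9 without lymphoma array 2) and 0 to 4 lower (4 without lymphoma array 1), and 0 to 1057 genes higher and 0 to 843 lower over the whole array, with 0 where a wild type array was left out. The gap between the arms lay between 0.23 and 0.54 in those fits. The longer motif GNGAAA, any 2 bases and GAAA was searched on either strand. It stood in 25% of the 32 listed genes with a window, against 1.12% of all 27025 genes with a window.

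Of the 36 genes, 25 kept the sign of their difference under all 12 alternatives. Signs changed for Ifi35 (-0.027) and Irf1 (-0.021) after quantile normalization, for Irf1 (-0.080) with probe sets averaged, and for Irf7 (0.071) and Stat2 (0.056) with array medians subtracted. Leaving out 1 array gave ranges across 0 for Ifi35 (-0.23 to 0.28), Ifit2 (-0.86 to 0.019), Ifit3 (-0.72 to 0.12), Irf1 (-0.047 to 0.12), Irf7 (-0.28 to 0.27), Irf9 (-0.35 to 0.19), Irgm1 (-0.14 to 0.72), Ly6e (-0.022 to 0.28), Oasl1 (-0.016 to 0.98), Stat2 (-0.10 to 0.058) and Xaf1 (-0.35 to 0.67). The cause of these changes was not tested. Such fits assume that a lone array varies like the other group.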
